A study of Mus musculus with 4 samples.

Results

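The 10 genes described here, Atf4, Atf3, Ddit3, Xbp1, Trib3, Asns, Chac1, Sesn2, Hspa5 and Herpud1, belong to the integrated stress response and the unfolded protein response. They were taken by symbol from tables of 25239 gene IDs, and each stood on 1 row in every library. RNA sequencing libraries were made from dissected mouse retina at E13.5 (E, embryonic day), 2 from the genotype called control and 2 from the genotype called Isl1cKO, a conditional knockout of the LIM-homeodomain gene Isl1. The driver of the knockout, the alleles carried by the controls and the number of embryos per library are not given in the sources used here, so p-values measure the spread between these libraries, which may be technical. The comparison asks how transcripts of the retina differ when Isl1 is lost.

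Cells answer several kinds of stress by phosphorylating the translation factor eIF2, which lowers general protein synthesis and favours translation of the transcription factor ATF4. ATF4 switches on genes for amino acid supply and, with CHOP (the product of Ddit3), genes linked to cell death. Unfolded protein in the endoplasmic reticulum (ER) activates the sensors PERK, IRE1 and ATF6, of which PERK feeds into ATF4, IRE1 splices the Xbp1 transcript and ATF6 is cut to release a transcription factor. Much of this control acts on translation, splicing or cleavage, which gene-level transcript values do not show.

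The start-site sequences of these genes are shown because the DNA elements of the pathway are read there. RefSeq windows from 250 bases before to 50 after each start (assembly GRCm38.p6) were found for all 10 genes, 1 window each. Both strands were searched for the C/EBP-ATF response element, CARE (TGATGNAA), the unfolded protein response element, UPRE (TGACGTGG), and the cyclic AMP response element, CRE (TGACGTCA). These are textbook forms of the elements, not taken from the data, and UPRE and CRE share their first 6 letters. The longer ER stress response elements were not searched. In the lines that follow, capitals mark the matched letters and each sequence runs 5′ to 3′ on the gene's strand.
Asns, CARE, chr6:7693210-7693252, minus strand: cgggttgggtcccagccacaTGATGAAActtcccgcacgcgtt
Chac1, CARE, chr2:119351029-119351076, plus strand: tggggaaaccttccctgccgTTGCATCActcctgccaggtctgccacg
Atf3, CARE, chr1:191183416-191183463, minus strand: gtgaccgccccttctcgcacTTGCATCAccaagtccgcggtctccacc
Trib3, CARE, chr2:152344029-152344056, minus strand: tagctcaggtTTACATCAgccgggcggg
Herpud1, CARE, chr8:94386297-94386344, plus strand: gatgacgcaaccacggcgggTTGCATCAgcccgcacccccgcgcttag

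The CARE letters thus stood in 5 of the 10 windows, those of Atf3, Trib3, Asns, Chac1 and Herpud1, against 3.97% of all 32851 windows. The Asns match lay from position -23 to -16 relative to the first transcribed base, on the gene's own strand. The matches of Chac1 (-193 to -186), Atf3 (-110 to -103) and Herpud1 (-112 to -105) read on the opposite strand, as did that of Trib3, which lay after the start (15 to 22). UPRE, held by 0.676% of all windows, and CRE, held by 1.79%, were matched in none of the 10. The windows of Atf4, Ddit3, Xbp1, Sesn2 and Hspa5 held none of the 3 motifs. A match is a description of letters.

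The libraries held 12.6 to 14.3 gigabases of aligned sequence, as derived from the deposited coverage and FPKM. Isl1 itself (chromosome 13, 116298270 to 116309688) was at 242 and 201 TPM (transcript abundance scaled to transcript length and library total) in the 2 control libraries and at 321 and 223 TPM under the Isl1cKO label. The targeted gene was therefore not lower there. Exons are not listed separately, and every direction below rests on the labels. Of 13984 genes tested, 69 (0.493%) passed an adjusted p-value of 0.05, 65 (0.465%) with lower and 4 (0.0286%) with higher values under the Isl1cKO label. Of 9 retinal progenitor markers, among them Pax6 and Rax, each was present in every library, with summed levels of 5368 to 5612 TPM in control and 4921 to 5651 TPM under the Isl1cKO label.

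In the controls the 10 transcripts ranged widely in level. Hspa5 was the most abundant, at a control mean of 681 ± 14.0 TPM (SD, n = 2), above 98.7% of tested genes. Atf4 followed at 192 ± 1.60 TPM and Xbp1 at 69.1 ± 5.77 TPM. Herpud1 (42.1 ± 0.531), Asns (39.0 ± 3.74) and Ddit3 (34.0 ± 5.18 TPM) formed a middle group, within which the control values of Asns and Ddit3 overlapped. Sesn2 stood at 8.36 ± 0.522 TPM, Chac1 at 2.45 ± 0.516 TPM and Trib3 at 1.56 ± 0.112 TPM. Atf3 was lowest, at 0.569 ± 0.112 TPM.

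**Figure D1:**
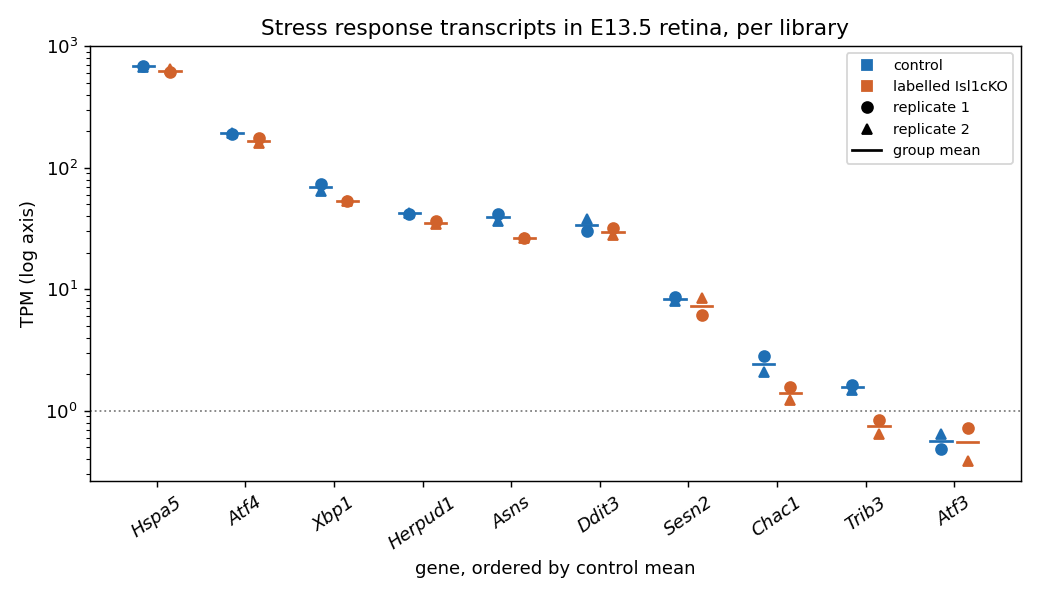
TPM of each of the 10 genes in each library on a log axis, ordered by control mean; circles are replicate 1, triangles replicate 2, short lines group means, and the dotted line is 1 TPM. Hspa5 and Atf4 lie highest, and Atf3 is under 1 TPM in all 4 libraries.

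Relative to control, the lowest levels in the libraries labelled Isl1cKO were those of Trib3, Chac1, Asns and Xbp1, with smaller differences in Herpud1, Atf4 and Hspa5. Trib3 was at 0.477 times, Chac1 at 0.568 times, Asns at 0.678 times and Xbp1 at 0.771 times its control mean. None of the 9 genes tested passed over all genes in limma with Benjamini-Hochberg adjustment (smallest adjusted p = 0.158, for Trib3), where 0.493% of all tested genes did. In 7 of the 10 genes both values of the libraries labelled Isl1cKO lay below both control values, a pattern that 30.0% of all tested genes showed. At an unadjusted p-value under 0.05, 5 of the 9 were lower (Trib3, Asns, Xbp1, Chac1 and Herpud1) and 0 higher, against 8.92% of all tested genes lower and 3.20% higher. Trib3 counts among the 5 although it passed the filter of at least 1 TPM in 2 libraries only through its control values. This count of 5 was 2 without control replicate 1, which leaves a single control assumed to vary like the other group.

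The transcription factors come first. Atf4 (chromosome 15, 80255184 to 80257545, plus strand), the central factor of the integrated stress response, was at 191 and 193 TPM in the 2 control libraries and at 176 and 159 TPM under the Isl1cKO label. The controls were nearly equal and both other libraries lay below them. The log2 fold change was -0.20 (SE 0.09, 95% interval -0.44 to 0.04), with an adjusted p of 0.486 in limma, and was -0.13 without Isl1cKO replicate 2. Fold changes here are differences of log2(TPM + 1), so those of genes near 1 TPM come out smaller than the ratio of their TPM.

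Xbp1 (chromosome 11, 5520641 to 5525993, plus strand) encodes the factor that drives ER chaperone and degradation genes once IRE1 has spliced its transcript. It was at 73.2 and 65.0 TPM in the 2 control libraries and at 53.0 and 53.5 TPM under the Isl1cKO label. The groups did not overlap, and the gap between the controls was 0.17 on the log2 scale against 0.01 within the other group. The log2 fold change was -0.37 (SE 0.09, 95% interval -0.62 to -0.11), with an adjusted p of 0.285 in limma. Spliced and unspliced Xbp1 are not separated in the tables.

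Ddit3 (chromosome 10, 127290793 to 127296288, plus strand), which encodes CHOP, was at 30.4 and 37.7 TPM in the 2 control libraries and at 31.7 and 28.0 TPM under the Isl1cKO label. The groups overlapped, because Isl1cKO replicate 1 lay above control replicate 1. Its log2 fold change was -0.18 (95% interval -0.55 to 0.19), with an adjusted p of 0.690 in limma. It was -0.33 without control replicate 1, -0.03 without control replicate 2 and -0.09 without Isl1cKO replicate 2. The last 68 bases of Ddit3 overlap the methionyl-tRNA synthetase gene on the other strand in GENCODE M21. Whether strand was used in assigning reads is not given in the sources used here.

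Atf3 (chromosome 1, 191170297 to 191183333, minus strand), which encodes a stress-induced factor that also marks injured neurons, was at 0.490 and 0.648 TPM in the 2 control libraries and at 0.717 and 0.388 TPM under the Isl1cKO label. Isl1cKO replicate 1 was the highest of the 4 libraries and Isl1cKO replicate 2 the lowest. No library reached 1 TPM, so Atf3 did not pass the filter on low values, and in a fit with no such filter its log2 fold change was -0.02 (SE 0.14) with an adjusted p of 0.971 in limma.

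**Figure D2:**
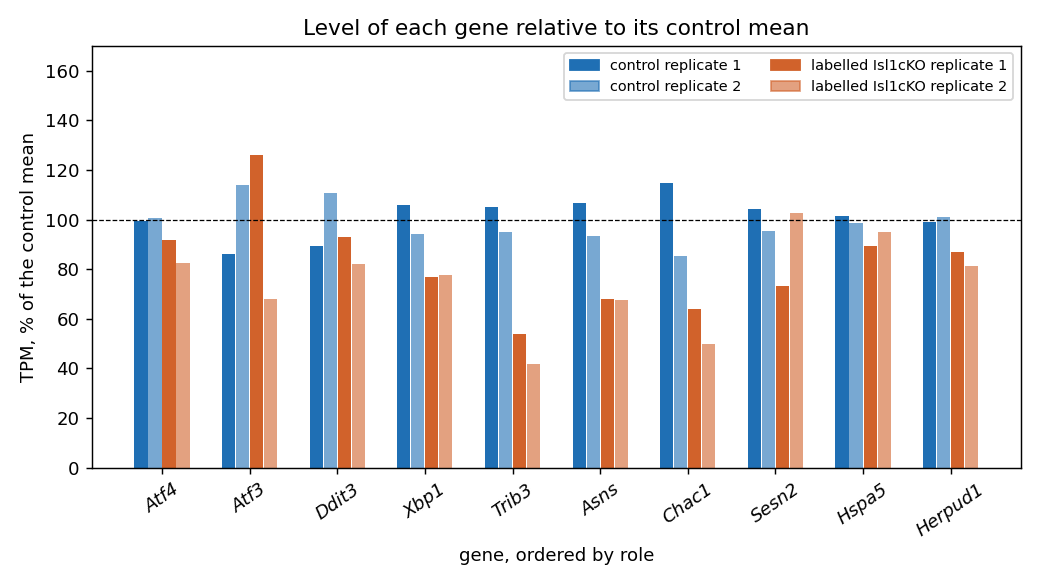
Bars give TPM in each library as a percentage of that gene's control mean (dashed line, 100%), with genes ordered by role. Trib3 stands at 53.7% and 41.8% in the libraries labelled Isl1cKO and Asns at 67.8% and 67.7%. Atf3, Ddit3 and Sesn2 overlap the controls.

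The pathway's own inhibitor showed the lowest ratio. Trib3 (chromosome 2, 152337425 to 152344060, minus strand) encodes a pseudokinase that is induced by ATF4 and CHOP and dampens their activity. It was at 1.64 and 1.48 TPM in the 2 control libraries and at 0.838 and 0.651 TPM under the Isl1cKO label. Its log2 fold change was -0.55 (SE 0.10, 95% interval -0.81 to -0.30), with an adjusted p of 0.158 in limma, and was -0.98 with a pseudocount of 0.1 in place of 1. Trib3 passed the filter only through its control values, so its place among tested genes was tied to being higher in control.

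Among effectors of amino acid and redox metabolism, the groups were apart in Asns and Chac1 and overlapped in Sesn2. Asns (chromosome 6, 7675165 to 7693209, minus strand) encodes asparagine synthetase, a classical ATF4 target. It was at 41.7 and 36.4 TPM in the 2 control libraries and at 26.5 and 26.4 TPM under the Isl1cKO label. Its log2 fold change was -0.54 (SE 0.10, 95% interval -0.81 to -0.28), with an adjusted p of 0.171 in limma. The difference exceeded the gap between the controls (0.19), and the libraries labelled Isl1cKO were nearly identical.

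Chac1 (chromosome 2, 119351242 to 119354327, plus strand) encodes an enzyme that breaks down glutathione. It was at 2.82 and 2.09 TPM in the 2 control libraries and at 1.57 and 1.22 TPM under the Isl1cKO label. The groups did not overlap, but the controls differed by 0.31 on the log2 scale. The log2 fold change was -0.52 (SE 0.15, 95% interval -0.91 to -0.14), with an adjusted p of 0.305 in limma.

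Sesn2 (chromosome 4, 132492807 to 132510456, minus strand) encodes sestrin 2, which restrains mTORC1 when leucine is scarce. It was at 8.73 and 7.99 TPM in the 2 control libraries and at 6.11 and 8.57 TPM under the Isl1cKO label. Only Isl1cKO replicate 1 lay below the controls. The log2 fold change of -0.18 (95% interval -0.62 to 0.26, adjusted p = 0.737 in limma) became 0.03 without that library and -0.39 without Isl1cKO replicate 2. An annotated RNA gene, Gm12981, lies within Sesn2 on the same strand and overlaps it by 6089 bases.

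Of the ER effectors, Hspa5 had the log2 fold change nearest to 0 among the 9 tested genes. Hspa5 (chromosome 2, 34772090 to 34776529, plus strand) encodes BiP, the main chaperone of the ER lumen. It was at 691 and 672 TPM in the 2 control libraries and at 610 and 647 TPM under the Isl1cKO label. The groups did not overlap, with a log2 fold change of -0.12 (95% interval -0.34 to 0.10) and an adjusted p of 0.656 in limma, and was -0.07 without Isl1cKO replicate 1 and under median-ratio scaling.

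Herpud1 (chromosome 8, 94386429 to 94395371, plus strand) encodes a membrane protein of ER-associated degradation. It was at 41.7 and 42.5 TPM in the 2 control libraries and at 36.6 and 34.3 TPM under the Isl1cKO label. Its log2 fold change was -0.24 (SE 0.08, 95% interval -0.46 to -0.02), with an adjusted p of 0.372 in limma. An antisense RNA gene, Gm15890, overlaps its first 544 bases.

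**Figure D3:**
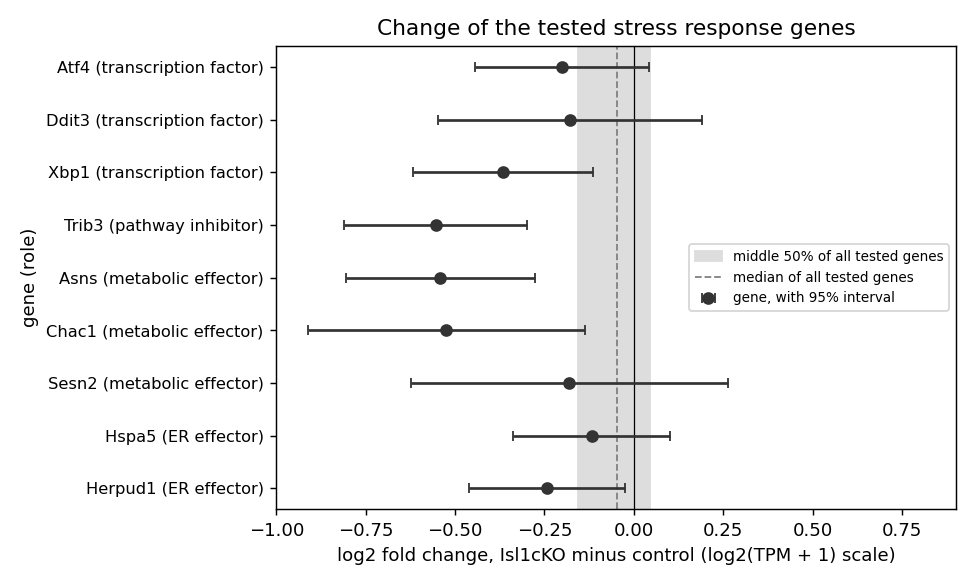
Log2 fold change (libraries labelled Isl1cKO minus control, log2(TPM + 1) scale) of the 9 tested genes with 95% intervals from limma; the grey band holds the middle 50% of all tested genes and the dashed line is their median, -0.05. The intervals of Xbp1, Trib3, Asns, Chac1 and Herpud1 lie below 0, before any adjustment for the number of genes. Trib3 passed the filter on low values only through its control values.

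The median log2 fold change over the 9 tested genes was -0.24, beside -0.05 over all tested genes, of which 63.8% were below 0. It was -0.37 without Isl1cKO replicate 2. All 9 were below 0, and remained so under median-ratio scaling and quantile normalization, while Sesn2 was at 0.03 without Isl1cKO replicate 1. The genes were chosen with earlier results of these data known, and Trib3 passed the filter only through its control values. The smallest absolute log2 fold change among the 69 genes that passed was 0.96, larger than that of any of the 9. Of all tested genes, 4.85% had a lower log2 fold change than Asns and 5.16% a lower one than Chac1. Hspa5 lay near the centre, with 31.9% of tested genes below it.

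**Figure D4:**
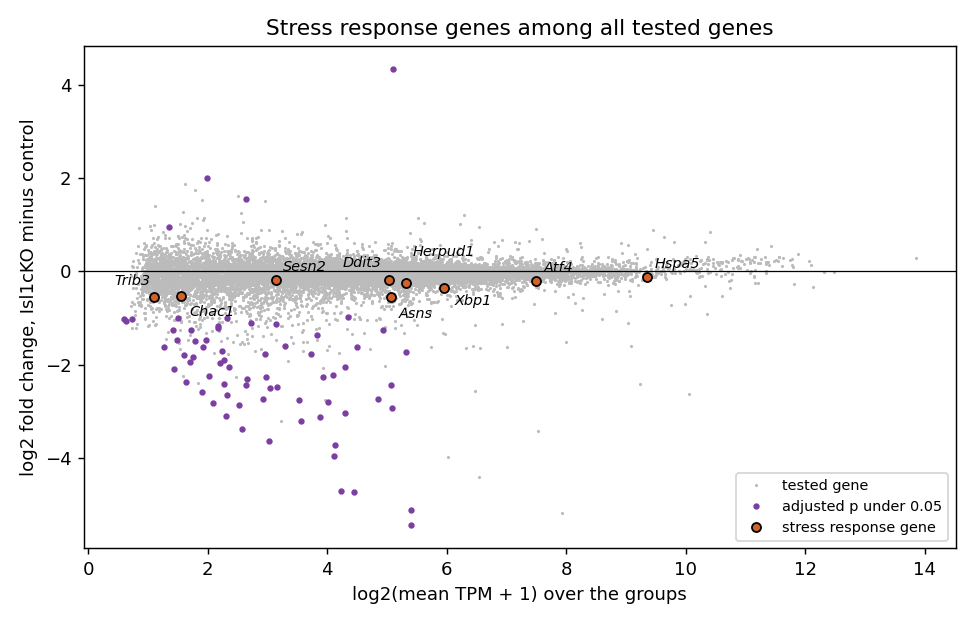
Log2 fold change against mean level for all 13984 tested genes, with the 69 that passed an adjusted p-value of 0.05 in purple and the 9 tested stress response genes in orange. The 9 lie below 0, from -0.55 (Trib3) to -0.12 (Hspa5), and are not among the genes that passed.

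Wider lists, of the pathway and of other stress responses such as heat shock and hypoxia, were read from the same fit. Of 170 genes on 14 stress-related lists 159 were tested, and 0 passed over all genes in limma. At an unadjusted p-value under 0.05 in limma, 16 were lower and 10 higher, beside 8.92% and 3.20% of all tested genes. Of these 10 higher genes, 7 stand on the hypoxia list. Among ATF4-linked amino acid transporters, the median log2 fold change was -0.17 over 9 genes, and the groups did not overlap in 6 lower and 1 higher, beside 30.0% and 14.9% of all tested genes. That median was -0.12 under median-ratio scaling and -0.25 with FPKM, where 8 were tested. Slc7a3, a cationic amino acid transporter, was at 4.40 and 3.56 TPM in control against 1.92 and 1.67 TPM under the Isl1cKO label (log2 fold change -0.83, adjusted p = 0.114 in limma). Slc7a5, the light chain of a leucine transporter, was at 39.0 and 33.7 TPM in control against 23.7 and 25.7 TPM (-0.54, adjusted p = 0.207 in limma). Slc7a11, the cystine transporter, lay the other way, at 1.505 and 1.245 TPM in control against 1.79 and 1.63 TPM (0.19, adjusted p = 0.524 in limma).

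The cytosolic tRNA synthetases, which charge tRNAs with amino acids and many of which ATF4 induces, had a median of -0.15 over 20 genes, 14 of them with both values below both controls and 1 above, beside 30.0% and 14.9% of all tested genes. Yars, for tyrosine, was at 113 and 112 TPM in control against 87.6 and 85.3 TPM under the Isl1cKO label (log2 fold change -0.38, adjusted p = 0.209 in limma). Cars, for cysteine, was at 52.3 and 50.4 TPM against 41.4 and 37.8 TPM (-0.37, adjusted p = 0.266 in limma). Qars, for glutamine, was higher, at 139 and 138 TPM in control against 155 and 170 TPM (0.22, adjusted p = 0.430 in limma). At an unadjusted p-value under 0.05, 2 of the 20 were lower and 0 higher, a share near the 8.92% of all tested genes that were lower. The median of the 20 was -0.10 under median-ratio scaling, where that of all tested genes was 0.00121.

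The serine and one-carbon enzymes had a median of -0.04 over 11 genes, near that of all tested genes. Median-ratio scaling moved the median of all tested genes from -0.05 to 0.00121 and that of this list to 0.00481. Psat1, of serine synthesis, was at 136 and 134 TPM in control against 113 and 110 TPM under the Isl1cKO label (log2 fold change -0.28, adjusted p = 0.304 in limma). Aldh1l2, a mitochondrial folate enzyme, was at 5.22 and 4.90 TPM against 4.47 and 3.59 TPM. Cbs, of the transsulfuration pathway, was at 1.94 and 1.49 TPM in control against 2.36 and 2.65 TPM (0.37, adjusted p = 0.343 in limma).

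ATF4-linked regulators and secreted factors lay in both directions, with a median of -0.22 over 8 tested genes of 11. That median was -0.10 without Isl1cKO replicate 2, -0.34 without Isl1cKO replicate 1 and -0.09 with either of the other filters on low values. Vldlr, a receptor for reelin and lipoproteins, was at 22.0 and 15.5 TPM in control against 8.15 and 6.56 TPM under the Isl1cKO label (log2 fold change -1.23, adjusted p = 0.146 in limma). Jdp2, a repressor of the AP-1 family, was at 5.95 and 5.14 TPM against 3.50 and 2.47 TPM (-0.72, adjusted p = 0.222 in limma). Ddit4, an mTORC1 inhibitor that hypoxia also induces, was at 73.1 and 51.8 TPM in control against 99.2 and 146 TPM under the Isl1cKO label (0.95, adjusted p = 0.297 in limma). Stc2, a secreted glycoprotein, was at 6.51 and 5.52 TPM against 7.76 and 12.7 TPM (0.64, adjusted p = 0.404 in limma). Gdf15 and Fgf21 were listed at 0 in at least 1 library and were not tested.

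**Figure D5:**
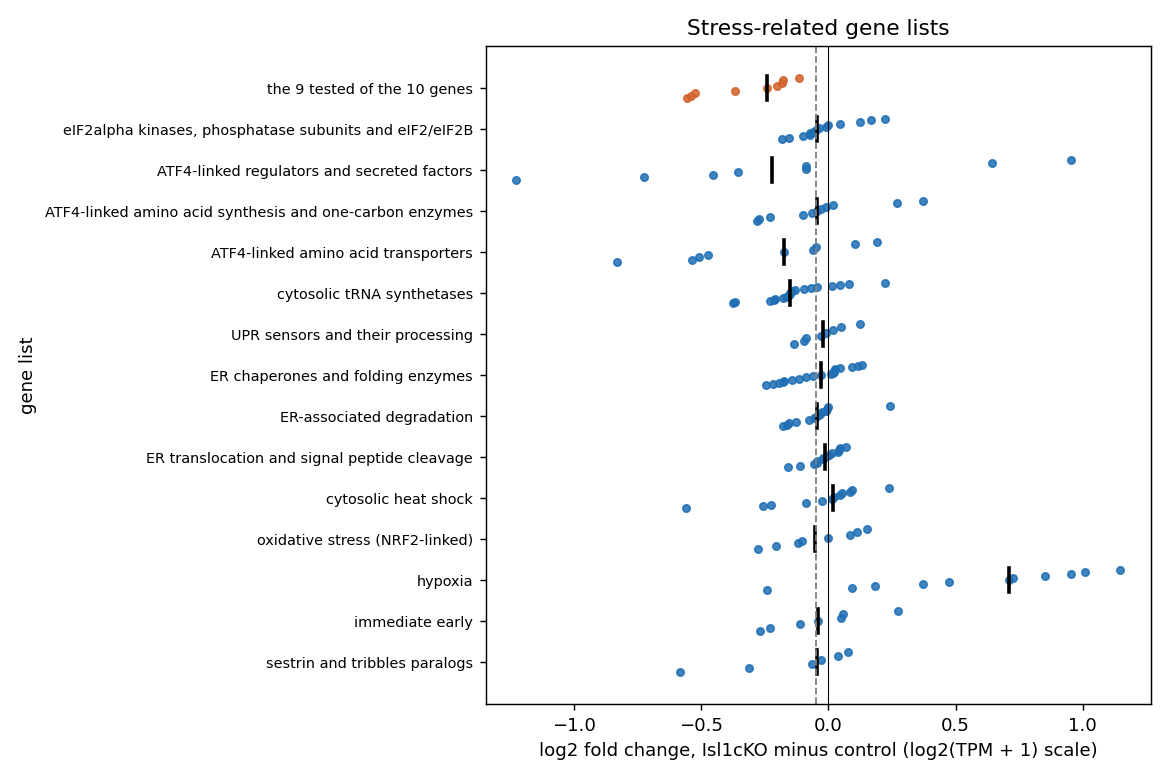
Log2 fold change (libraries labelled Isl1cKO minus control) of each tested gene in the stress-related lists, 1 point per gene; black ticks are list medians and the dashed line is the median of all tested genes. The ER lists lie close to that line, and the hypoxia list has its median at 0.71.

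Upstream of ATF4, the eIF2 kinases, phosphatase subunits and eIF2 and eIF2B subunits had a median of -0.04 over 14 genes and of 0.00832 under median-ratio scaling, in both cases near that of all tested genes. Eif2ak2, the kinase PKR, was at 8.48 and 7.87 TPM in control against 9.74 and 9.65 TPM under the Isl1cKO label (log2 fold change 0.22, adjusted p = 0.408 in limma). Ppp1r15a, the stress-induced phosphatase subunit that ends the response, was at 9.91 and 9.85 TPM against 10.8 and 11.6 TPM. Ppp1r15b, its constitutive counterpart, was at 51.6 and 47.8 TPM against 43.9 and 45.2 TPM. Eif2s2, the beta subunit of eIF2, was at 217 and 206 TPM against 198 and 204 TPM.

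On the ER side, medians were -0.03 for 19 chaperones and folding enzymes, -0.04 for 14 degradation genes, -0.01 for 14 translocation genes and -0.02 for 8 tested sensor genes, and all 4 turned above 0 under median-ratio scaling, as did the median of all tested genes. None of these genes had an unadjusted p-value under 0.05 in limma. Manf, a secreted ER stress protein, was at 473 and 481 TPM in control against 425 and 395 TPM under the Isl1cKO label (log2 fold change -0.22, adjusted p = 0.426 in limma). Creld2, an ER stress-inducible protein, was at 52.5 and 52.4 TPM against 45.2 and 47.6 TPM. Pdia3, a disulfide isomerase, was higher, at 455 and 451 TPM against 473 and 510 TPM, as was Sil1, a nucleotide exchange factor of BiP, at 21.6 and 21.5 TPM against 24.7 and 22.7 TPM. Among degradation genes, Selenos was at 49.7 and 43.8 TPM against 42.6 and 41.0 TPM. Derl3 was at 1.13 and 1.18 TPM in control against 1.37 and 1.73 TPM. The sensor Atf6 was at 14.8 TPM in both controls and at 14.3 and 13.46 TPM under the Isl1cKO label. Creb3l2, an ER-anchored transcription factor, lay the other way, at 4.78 and 5.52 TPM in control against 5.75 and 5.62 TPM, as did Mbtps2, a protease that cuts ATF6, at 23.5 and 23.4 TPM against 25.1 and 23.6 TPM.

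Other gene lists stood apart from these in the same libraries, and their part in the values above was not tested. Of 11 tested hypoxia genes, of which Ddit4 and Ero1l also stand on a list above, 10 were above 0 and 7 were higher at an unadjusted p-value under 0.05, beside 3.20% of all tested genes. The median of the list was 0.71, and 0.46 without Isl1cKO replicate 2. The summed level of the 12 genes was 2551 and 2209 TPM in the controls and 3204 and 4659 TPM under the Isl1cKO label, highest in replicate 2. Vegfa, the vascular growth factor that ATF4 and hypoxia both induce, was at 125 and 115 TPM in control against 166 and 167 TPM (log2 fold change 0.47, adjusted p = 0.171 in limma), and Pdk1 at 32.9 and 22.1 TPM against 49.8 and 74.5 TPM (1.15, adjusted p = 0.264 in limma). Adm was listed at 0 in Isl1cKO replicate 1 and was under 0.2 TPM elsewhere.

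Markers of retinal ganglion cells, the cells that express Isl1 early, were lower in 12 of 14 genes, beside 63.8% of all tested genes. Their summed levels were 4053 and 3463 TPM in control and 2242 and 1539 TPM under the Isl1cKO label. The 2 others were Isl1 itself, given above, and Pou4f2, at 126 and 124 TPM in control against 135 and 120 TPM. Pou4f3 was at 0.761 TPM in Isl1cKO replicate 1 and listed at 0 in Isl1cKO replicate 2. It passed the filter on low values only through its control values. Red blood cell genes were lower in 8 of 8 tested (2903 and 4168 TPM summed in control, 1418 and 204 TPM under the Isl1cKO label), with Hbb-bs listed at 0 in a library. Lens genes were lower in 9 of 10 tested (186 and 229 TPM against 13.1 and 9.61 TPM), with Lim2, Bfsp2 and Foxe3 listed at 0 in a library. Any lens or red blood cell gene that passed the filter only through its control values was bound to count as lower. Photoreceptor precursor markers were lower in 6 of 6 (372 and 340 TPM against 341 and 276 TPM), beside 63.8% of all tested genes. Microglia markers were higher in 7 of 8 (55.2 and 57.0 TPM against 69.6 and 82.6 TPM), beside 5068 of all 13984 tested genes. Under median-ratio scaling these counts were 5 of 6 lower and 8 of 8 higher. In bulk tissue, fewer cells of a type and less RNA per cell cannot be told apart, and this touches each difference given for the 10 genes.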

How the data were processed

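Poly(A)-selected, strand-specific libraries were sequenced. The submitters' processing notes name Trimmomatic, HISAT2, SAMtools and StringTie and the build mm10. Per the file headers, the deposited tables give coverage per base, FPKM (scaled to length and library total by the authors) and TPM (scaled to length and then, as the values show, to a sum of 1000000 per library). Depth in reads is unknown. Aligned sequence was derived as the median ratio of coverage to FPKM.

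TPM were summed per gene ID. Genes with at least 1 TPM in at least 2 libraries entered 1 fit of log2(TPM + 1) on genotype with limma 3.58.1 in R 4.3.3 (constant prior), adjusted by Benjamini-Hochberg over all tested genes at a threshold of 0.05. The fit was tested on simulated data. Intervals are 95% and not adjusted. Alternatives were another pseudocount, other filters, FPKM, other scalings, a mean-variance trend, the replicate block and leaving out each library.

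The 10 genes and the lists were chosen with earlier results of these data known. From each wider list the text names up to 2 genes with the smallest p-value in each direction among those whose groups do not overlap and whose mean is at least 1 TPM in a group. A gene that this rule picks is not reported here. Overlapping genes came from GENCODE M21 and start-site sequences from RefSeq, both on GRCm38, the assembly of mm10.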

Additional observations from a re-analysis of the deposited data

How the results depend on the processing

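The number of genes of the series that passed, 69, was 44 at a pseudocount of 0.1, 15 when all 19784 genes above 0 were tested, 127 with FPKM, 110 with a mean-variance trend and 265 with the replicate block. It ranged from 10 to 37 when a library was left out, lowest without control replicate 1, in fits where the lone library of a group was assumed to vary like the other group. Leaving out a library was planned as values only, and its limma fits were added after seeing the data. The cause of these changes in number was not tested. None of the 10 genes passed in any of these 12 alternatives, in which their smallest adjusted p in limma lay between 0.0828 (Trib3, with the replicate block) and 0.8002. The median over the tested genes, -0.24, was -0.15 with FPKM, where 7 were tested, -0.18 after quantile normalization, and ranged from -0.37 to -0.24 when a library was left out. Sesn2 ranged from -0.39 to 0.0327 when a library was left out and changed sign without Isl1cKO replicate 1. At an unadjusted p-value under 0.05 in limma, the 5 lower genes became 2 of 7 tested with FPKM, where Trib3 and Chac1 did not pass the filter. They became 6 of 9 with a mean-variance trend. The deviations of the replicates numbered 1 correlated at 0.126 across genes, but there are 2 pairs and nothing in the labels ties the numbers to a litter, so the libraries share only a number. Without read counts, no detection limit was set for Atf3, Trib3 or Chac1.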

Other observations

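The remaining stress lists had medians near that of all tested genes. The ER translocation genes included Ssr3, at 245 and 235 TPM in control against 250 and 253 TPM under the Isl1cKO label, Ssr1, at 74.3 and 74.9 TPM against 77.2 and 76.5 TPM, and Sec62, at 81.8 and 85.7 TPM against 75.7 and 79.3 TPM. The cytosolic heat shock list had a median of 0.02 over 12 genes. Its lower members included Hspb1, a small heat shock protein, at 2.61 and 2.74 TPM in control against 1.71 and 1.29 TPM under the Isl1cKO label (log2 fold change -0.56, adjusted p = 0.203 in limma), and Hspa8, the constitutive cytosolic chaperone, at 2562 and 2415 TPM against 2146 and 2020 TPM (-0.26, adjusted p = 0.368 in limma). Its higher members included Bag3, a co-chaperone, at 5.34 and 4.71 TPM against 5.38 and 6.88 TPM, and Hspd1, of the mitochondrial matrix, at 628 and 608 TPM against 646 and 673 TPM. The oxidative stress list had a median of -0.05 over 8 tested genes, with Srxn1, which repairs peroxiredoxins, at 20.6 and 19.5 TPM in control against 15.7 and 17.1 TPM (-0.28, adjusted p = 0.350 in limma), Gclm at 24.2 and 21.1 TPM against 18.5 and 20.5 TPM, and Prdx1 at 397 and 411 TPM against 415 and 443 TPM. The immediate early list had a median of -0.04 over 7 tested genes of 11, with Jun at 60.2 and 57.1 TPM against 48.2 and 48.7 TPM (-0.27, adjusted p = 0.327 in limma) and Ier2 at 50.7 and 49.4 TPM against 41.6 and 43.4 TPM. Under median-ratio scaling the translocation and immediate early medians turned above 0, as did the median of all tested genes.

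Among close relatives of the 10 genes, Trib2, a pseudokinase of the family of Trib3, was at 43.5 and 39.3 TPM in control against 28.0 and 26.5 TPM under the Isl1cKO label (log2 fold change -0.58, adjusted p = 0.142 in limma), a TPM ratio of 0.658 beside 0.477 for Trib3. Trib1 was at 24.4 and 23.9 TPM against 24.8 and 25.02 TPM, and Sesn1 at 24.7 and 25.7 TPM against 27.1 and 26.1 TPM.

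The start-site motifs can be read across all genes as a description. Of the tested genes with a RefSeq window, 10831 in number with a median log2 fold change of -0.05, 281 held the CARE letters, with a median of -0.08, and 2 of them were called in limma. The groups did not overlap, with the libraries labelled Isl1cKO lower, in 38.1% of these 281 genes and in 30.1% of the 10831. The median was -0.06 over 113 genes with UPRE and -0.05 over 396 with CRE. The groups were apart in the same direction in 33.6% of the genes with UPRE and in 31.8% of those with CRE. The 281 genes with CARE include the tested ones of the 10 that hold a motif.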
